A study of Mus musculus with 4 samples.

Results

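The Kruppel-like factors other than Klf1 were followed here as 10 genes, Klf2, Klf3, Klf4, Klf5, Klf6, Klf7, Klf9, Klf10, Klf12 and Klf13. They were chosen by name, as every probe of the unnormalized bead array table whose array name or platform symbol is one of these genes. That gave 22 of the 45281 probes, and 10 of the 20136 named genes with a probe. For 2 of the 22 probes, 1 of Klf10 and 1 of Klf13, the array's own name is an older one and the platform symbol made the match. The array also carries 6 further Kruppel-like genes that the choice does not include, and these are given below for comparison together with Klf1.

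The study compared lineage-negative bone marrow cells of mice, which are the fraction left after cells with mature blood lineage markers are removed, on 4 Illumina mouse WG-6 v2 bead arrays of 1 colour. The 2 control samples carried floxed Atad3a alleles without a Cre transgene (Atad3afl/fl), and the 2 deletion samples carried the same floxed alleles with Mx1Cre (Atad3afl/flMx1Cre). All samples were labelled as day 12 after poly I:C, so the double-stranded RNA that induces interferon was common to both groups. Mx1Cre is expressed from the interferon-responsive Mx1 promoter, which acts in blood-forming cells and also in other interferon-responsive cells, and it was present in the deletion group only. Deletion of Atad3a therefore cannot be told apart from the presence of Cre. The labels used here give no strain, age, sex or pooling of the animals. They also do not say that replicates came from separate mice, so each p-value rests on a spread between samples that may be technical. Atad3a encodes a mitochondrial inner membrane ATPase. Its log2 intensity was 10.99 ± 0.09 in the controls and 9.92 ± 0.12 in the deletion samples (mean ± SD, n = 2 each), a log2 change of -1.07 (SE 0.13, limma adjusted p = 0.00866). Whether the Atad3a probe lies in the deleted part of the gene is unknown here, so its fall may not check the labels.

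Kruppel-like factors are transcription factors with a C-terminal DNA-binding region of 3 zinc fingers that recognizes GC-rich and CACCC sequences, and they are related to the SP factors, which bind similar sites. Their N-terminal parts differ and set how each acts. One class, with Klf3 and Klf12, recruits the corepressor CtBP, another, with Klf2, Klf4, Klf5, Klf6 and Klf7, is mainly activating and binds acetyltransferases, and another, with Klf9, Klf10 and Klf13, binds the Sin3 corepressor. Klf1, the founding member, drives red cell genes, and in blood several of the others act in lymphocytes, monocytes and stem cells.

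Of the 10 genes, 8 were detected, meaning that at least 1 probe was brighter than the negative control beads (detection p under 0.05) on 2 or more arrays. Across them 14 probes were tested. Klf10, with 2 probes, and Klf12, with 5 probes, were not detected on any array, and neither was 1 of the 2 Klf5 probes. The raw signal of these 8 probes lay between 81.0 and 112.6, where the median of all probes on an array was 95.8 to 112.1. Klf10 is a TGF-beta-induced gene, and Klf12 is a repressor known for acting on the AP-2alpha gene. No level or change is given for either.

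**Figure D1:**
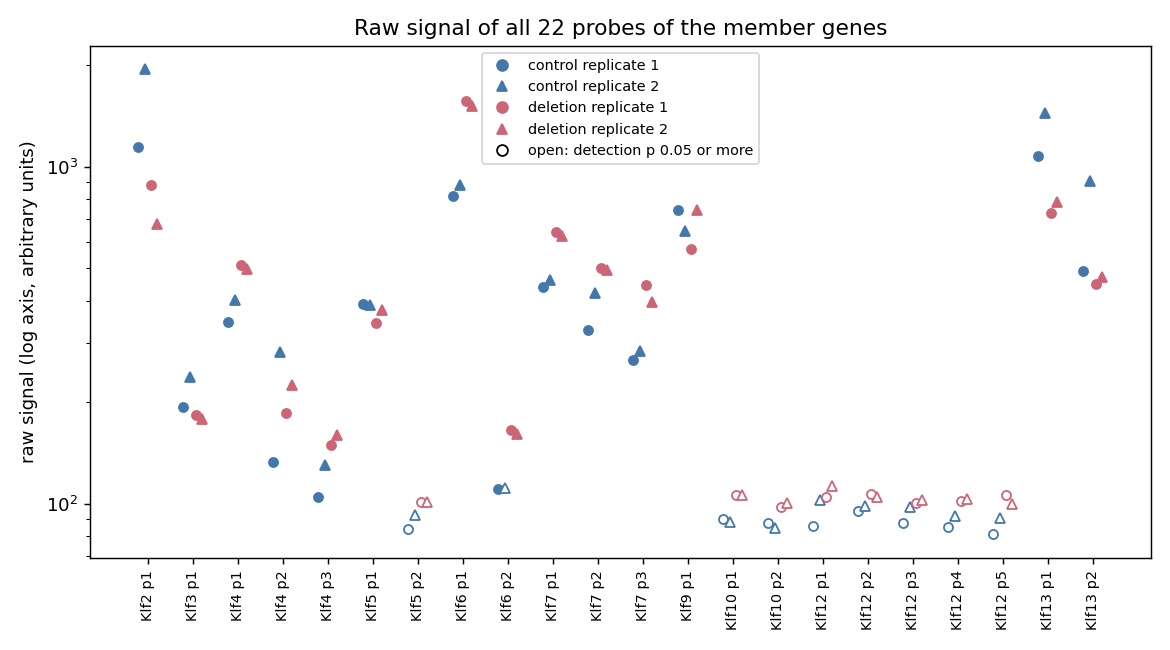
Raw scanner signal (log axis, arbitrary units) of each of the 22 probes of the 10 genes on the 4 arrays, with p1, p2 and so on numbering the probes of a gene. Open symbols mark arrays where the detection p was 0.05 or more: all Klf10 and Klf12 probes and the second Klf5 probe are open throughout, and the second Klf6 probe is open on 1 control array.

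Among the 8 detected genes, 3 rose in the deletion samples, Klf6, Klf7 and Klf4. All 3 belong to the activating class, which holds 5 of the 8. None fell by limma's moderated test with Benjamini-Hochberg adjustment over all 18367 detected probes (adjusted p under 0.05). The other 5 did not pass: Klf2, Klf3 and Klf13 were lower, with unadjusted p under 0.05 in 3 of 3, and Klf5 and Klf9 had overlapping groups. The share of all genes at an unadjusted p under 0.05 is not given here. It cannot be smaller than the adjusted share, so counts at that threshold, here and below, have no background to be read against. The brightest detected probe of a gene stands for it. On that scale 14.8% of all 10405 detected named genes rose, 14.2% fell and 29.0% changed in either direction, beside 37.5% of the 8 members, all of them higher. The median change of the 8 was 0.05 on the log2 scale, with 0.00 over all genes. The 2 groups did not overlap for 6 of the 8 members, a pattern that 73.0% of all genes showed. The members' share was close to that background. By probe, 6 of the 14 rose and 8 did not pass, where 27.0% of all tested probes changed in either direction. The share of all probes that rose is not given here. Every tested probe of Klf6 and Klf7 is among the 6, so they are not separate genes.

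**Figure D2:**
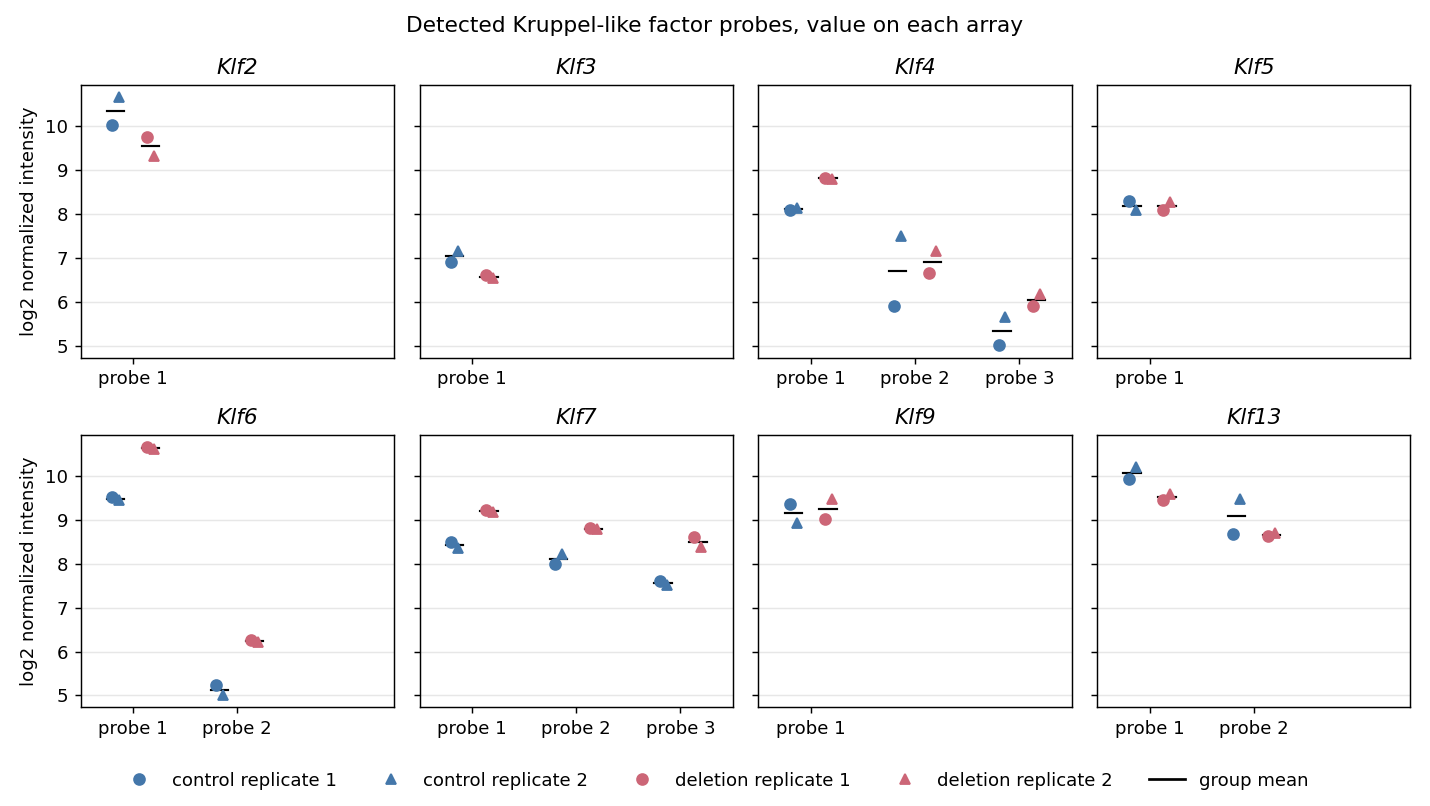
Normalized log2 intensity of the 14 detected probes, 1 panel per gene, with control arrays in blue, deletion arrays in red and the group mean as a line. Both deletion arrays lie above both control arrays for every Klf6 and Klf7 probe, and below them for Klf2, Klf3 and the first Klf13 probe. Levels of different probes are not comparable with each other.

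Klf6, a widely expressed activator with a known part in macrophage activation and vascular repair, had the largest rise of the 8 members tested. Its brighter probe (ILMN_2731949) read 9.52 and 9.45 on the log2 scale in the controls and 10.66 and 10.62 in the deletion samples. The 2 arrays of each group lay close together, and the groups were far apart. The difference was 2.23-fold, a log2 change of 1.16 (SE 0.11, 95% interval 0.86 to 1.45, limma adjusted p = 0.00553). In the unnormalized table the same probe read 821.3 and 886 in the controls and 1573 and 1516.2 in the deletion samples. Its dim probe (ILMN_1232041) read 5.25, 5.02, 6.26 and 6.21 in the same order, a log2 change of 1.11 (SE 0.13, limma adjusted p = 0.00873). That probe was detected on 1 of the 2 control arrays only, and its change was 0.43 without background correction and 0.35 in the authors' processed values.

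Klf7, known from neurogenesis and as a factor that limits stem cell function in blood when forced, rose on all 3 of its probes. The brightest (ILMN_1251426) read 8.50 and 8.36 in the controls and 9.23 and 9.18 in the deletion samples, a rise of 1.71-fold (log2 change 0.78, SE 0.12, limma adjusted p = 0.0147). The probe ILMN_1241890 read 7.60 and 7.51 against 8.60 and 8.38, a log2 change of 0.93 (SE 0.14, limma adjusted p = 0.0129). The probe ILMN_2433213 read 8.0 and 8.22 against 8.81 and 8.79, a log2 change of 0.69 (SE 0.13, limma adjusted p = 0.0247). No control array reached a deletion array on any of the 3. The last of them did not pass with median scaling (adjusted p = 0.0743), nor ILMN_1241890 without control replicate 2 (log2 change 0.87, adjusted p = 0.0513).

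Klf4, a reprogramming factor that in blood is needed for inflammatory monocytes, rose on 1 of its 3 probes. The brightest (ILMN_2999439) read 8.09 and 8.15 in the controls and 8.84 and 8.80 in the deletion samples, a rise of 1.62-fold (log2 change 0.70, SE 0.11, limma adjusted p = 0.0163). The probe ILMN_1221264 read 5.01 and 5.66 against 5.90 and 6.19, a log2 change of 0.71 that did not pass (SE 0.25, limma adjusted p = 0.104). On this dim probe both deletion arrays were above both controls. Its change was 0.38 without control replicate 1 and 1.03 without control replicate 2, where it passed (adjusted p = 0.0475), and 0.27 without background correction and 0.22 in the authors' processed values. It passed with the replicate number as a block as well (adjusted p = 0.0481). The probe ILMN_1241903 read 5.90 and 7.5 in the controls and 6.66 and 7.15 in the deletion samples, so its groups overlapped (log2 change 0.21, SE 0.56, adjusted p = 0.802). Without control replicate 1 its change was -0.60 and without control replicate 2 it was 0.98, and neither passed. With the mean of all 3 probes in place of the brightest, the Klf4 change was 0.54 and the call was lost (limma adjusted p = 0.177).

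The 3 risen genes and Klf3 are shown by the 250 bases upstream of the gene start, from RefSeq (GRCm38.p6), because Kruppel-like factors are known to bind each other's promoters. Klf3, which did not pass, is added as a known Klf1 target and as the member window with the most CACCC copies. Capitals mark CACCC on either strand, the motif most Kruppel-like factors bind, and all other bases are in lower case. Klf6 lies on chr13:5861239-5861488 (+ strand), Klf7 on chr1:64121390-64121639 (- strand), Klf4 on chr4:55532476-55532725 (- strand) and Klf3 on chr5:64803271-64803520 (+ strand). Each is printed 5′ to 3′ on the strand of its gene.
Klf6: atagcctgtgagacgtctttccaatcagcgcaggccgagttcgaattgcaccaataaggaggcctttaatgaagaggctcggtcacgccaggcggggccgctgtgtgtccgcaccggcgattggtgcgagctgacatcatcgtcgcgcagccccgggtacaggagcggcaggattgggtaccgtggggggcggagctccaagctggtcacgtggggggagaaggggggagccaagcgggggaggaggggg
Klf7: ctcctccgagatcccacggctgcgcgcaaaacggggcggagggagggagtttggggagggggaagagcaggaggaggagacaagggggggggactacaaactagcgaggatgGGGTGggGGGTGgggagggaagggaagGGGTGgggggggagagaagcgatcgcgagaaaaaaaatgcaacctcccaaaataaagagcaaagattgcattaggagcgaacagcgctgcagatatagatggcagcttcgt
Klf4: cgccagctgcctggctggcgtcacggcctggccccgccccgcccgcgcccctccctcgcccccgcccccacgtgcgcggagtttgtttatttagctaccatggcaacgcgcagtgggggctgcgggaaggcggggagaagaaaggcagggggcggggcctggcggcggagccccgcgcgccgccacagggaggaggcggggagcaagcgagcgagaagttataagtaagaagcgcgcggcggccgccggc
Klf3: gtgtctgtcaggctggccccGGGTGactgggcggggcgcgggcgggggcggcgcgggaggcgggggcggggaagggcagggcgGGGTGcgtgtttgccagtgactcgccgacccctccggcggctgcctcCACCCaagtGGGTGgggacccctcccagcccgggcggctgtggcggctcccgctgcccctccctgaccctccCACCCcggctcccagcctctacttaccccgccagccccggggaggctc

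The upstream windows of the risen genes did not share CACCC: Klf7 had 3 copies, while Klf6 and Klf4 had none. Klf3 had 5 copies, 1 of which overlapped a GC box. Klf2, Klf9, Klf12 and Klf13, whose windows are not printed, had 1 each. Of all 32817 upstream windows of the same length 52.0% held at least 1 copy, 6.9% at least 3 and 2.1% at least 4. The GC box, searched as GGGCGG on both strands, occurred 4 times for Klf4, 1 time each for Klf6 and Klf7 and 6 times for Klf3, where 32.7% of all windows held at least 1 and 4.1% at least 4. All 4 windows were GC-rich, at 64.8%, 59.2%, 74.0% and 78.4% for Klf6, Klf7, Klf4 and Klf3, with a median of 52.4% over all windows. The blood factor motif GATAA was in none of these 4 and in 22.6% of all windows. The motif TGATGNAA, bound by the stress factors of the ATF4 and CHOP group, was in none of the 8 members' windows and in 3.5% of all. Of the 10 members, 8 had a window in the table, and Klf5 and Klf10 had none. These matches describe letters in a window and not sites in use.

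Klf2, which keeps lymphocytes quiescent and guides their traffic and which responds to flow in endothelium, read 10.03 and 10.66 on the log2 scale in the controls and 9.76 and 9.33 in the deletion samples (ILMN_2604029). Both deletion arrays were below both controls, but the arrays within each group were also apart. The log2 change of -0.80 (SE 0.27, 95% interval -1.51 to -0.09) did not pass (limma adjusted p = 0.0923). The raw signal was 1148.2 and 1949 in the controls and 882.8 and 676.4 in the deletion samples. The 2 controls differed by 0.63, a gap that 4.83% of all genes exceeded, and the 2 deletion arrays by 0.43, which 7.93% exceeded. Leaving out 1 array moved the Klf2 change between -1.11, without control replicate 1, and -0.48, without control replicate 2.

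Klf3 represses through CtBP and is known as a gene that Klf1 turns on in red cell precursors. Its probe (ILMN_1239381) read 6.92 and 7.17 in the controls and 6.62 and 6.54 in the deletion samples, a log2 change of -0.47 that did not pass (SE 0.14, limma adjusted p = 0.0690). The deletion arrays lay just below the lower control. The change was -0.24 in the authors' processed values. Of the 14 alternatives it passed in 1, the mean of a gene's probes (adjusted p = 0.0473). Klf3 has a single probe, so its change was -0.47 there too, and only the spread and the adjustment over genes differed.

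Klf13, known for activating Ccl5 in T cells, read 9.93 and 10.21 in the controls and 9.45 and 9.58 in the deletion samples, on its brighter probe (ILMN_1218206). Both deletion arrays were lower, by a log2 change of -0.55 that just missed the threshold (SE 0.15, limma adjusted p = 0.0546). It passed in 7 of the 14 processing alternatives, among them no background correction (adjusted p = 0.0264). The second probe (ILMN_2464474) read 8.69 and 9.48 against 8.62 and 8.70, so its groups overlapped, and its change was -0.42 (SE 0.28, adjusted p = 0.311). On that probe 1 of the 2 controls stood well above the other 3 arrays. Its change was -0.82 without control replicate 1, where it passed (adjusted p = 0.0313), and -0.03 without control replicate 2 (adjusted p = 0.892).

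Klf9, a glucocorticoid- and thyroid hormone-induced gene, read 9.37 and 8.93 in the controls and 9.03 and 9.49 in the deletion samples (ILMN_1254031). The log2 change was 0.11 (SE 0.24, limma adjusted p = 0.753), and the groups overlapped. Klf5, which is best known in gut epithelium, read 8.31 and 8.09 against 8.10 and 8.27 on its detected probe (ILMN_1253387), a log2 change of -0.01 (SE 0.14, limma adjusted p = 0.959). The 95% interval of the Klf5 change ran from -0.38 to 0.36. For Klf9 and Klf5 alike the sign turned under some alternatives, over ranges of -0.12 to 0.34 and -0.16 to 0.10.

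**Figure D3:**
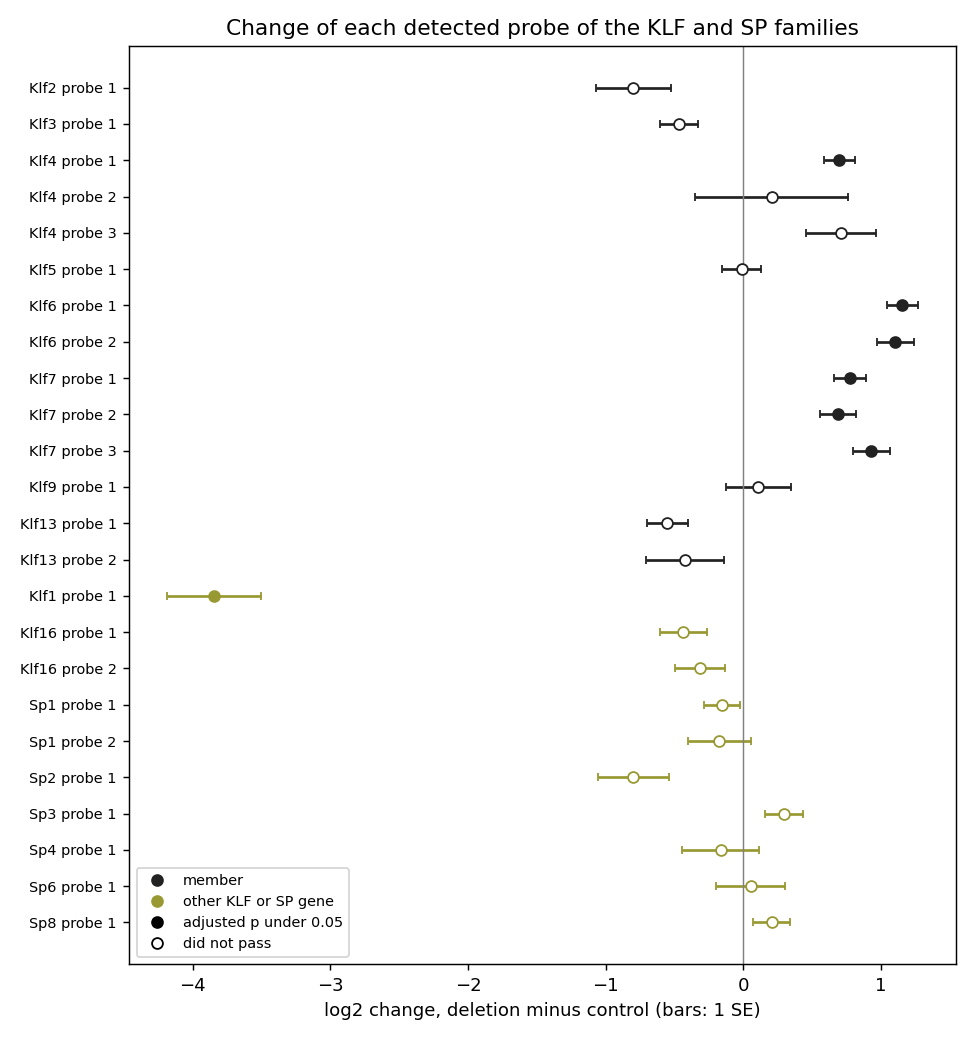
Log2 change (deletion minus control, bars 1 SE) of each detected probe of the Kruppel-like and SP families, members in black and the other genes in olive, filled where the adjusted p is under 0.05. The filled members are all to the right of 0, from 0.69 to 1.16, while the filled Klf1 is far to the left.

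By class, the activating class had 5 of the 8 tested members. Of these, 3 rose and none fell, with a median log2 change of 0.70, where 14.8% of all genes rose and 14.2% fell. At an unadjusted p under 0.05 the class still had 3 higher and had 1 lower, Klf2. The CtBP-binding class had Klf3 alone (-0.47), and the Sin3-binding class had Klf9 and Klf13, with a median of -0.22 and neither past the test. Classes of 5, 1 and 2 tested genes are too small to compare. Outside the members, Klf1 fell from 11.93 and 11.87 in the controls to 8.55 and 7.56 in the deletion samples, a log2 change of -3.85 (SE 0.34, limma adjusted p = 0.00459). Its 2 deletion arrays were 0.99 apart. Klf16 read 8.33 and 8.73 against 8.11 and 8.08 and did not pass (-0.44, SE 0.17, adjusted p = 0.124). Klf8, Klf11, Klf14, Klf15 and Klf17 were not detected.

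Of the 9 SP factors, 6 were detected and none passed limma's test in either direction, with 1 lower and none higher at an unadjusted p under 0.05. That one was Sp2, which read 7.40 and 8.11 in the controls and 6.91 and 7.0 in the deletion samples (-0.80, SE 0.26, adjusted p = 0.0821). The changes of the ubiquitous activators Sp1 and Sp3 were -0.15 and 0.30, and those of Sp4, Sp6 and Sp8 were -0.16, 0.05 and 0.21. Sp8 was not detected in either control, and Sp6 on 1 array of each group. Sp5, Sp7 and Sp9 were not detected. Without control replicate 1, Sp2 (-1.15, adjusted p = 0.0224) and Klf16 (-0.63, adjusted p = 0.0426) both passed. Without control replicate 2 they were at -0.43 (adjusted p = 0.1003) and -0.23 (adjusted p = 0.244).

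Lists of related genes are read here and below beside the shares over all genes, 14.8% higher and 14.2% lower. Those shares are at an adjusted p under 0.05 and do not serve for counts at an unadjusted p. Among genes that act with Kruppel-like factors few passed the test. Of 15 detected cofactors and ubiquitin ligases, 1 fell and 14 did not pass, with a median log2 change of 0.00. The one that fell was Rcor1, a corepressor of the CoREST complex, at 10.94 and 10.84 in the controls against 10.37 and 10.32 in the deletion samples (-0.55, SE 0.12, limma adjusted p = 0.0311). It did not pass when either control array was left out, with adjusted p of 0.0635 and 0.0589. With the mean of its probes in place of the brightest its change was -0.27 and the call was lost (adjusted p = 0.146).

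Genes known to act upstream of Klf2 did not move one way. Of 5 detected, 1 rose and 3 fell, with a median of -0.45. Mef2c, a MADS-box activator at the end of the ERK5 kinase pathway, read 9.07 and 8.95 in the controls and 10.05 and 9.99 in the deletion samples, a rise of 1.01 (SE 0.12, limma adjusted p = 0.00798). Foxo1, a forkhead factor that drives Klf2 in lymphocytes, fell from 8.74 and 8.45 to 7.82 and 7.46 (-0.96, SE 0.19, limma adjusted p = 0.0253). Foxo3 (-0.58, adjusted p = 0.0478) and Mef2d (-0.45, adjusted p = 0.0488) fell by less and lay near the threshold. Foxo3 did not pass without control replicate 2 (adjusted p = 0.109), and Mef2d without either control array (0.0892 and 0.0895). Both calls were also lost with no background correction (Foxo3 -0.29, adjusted p = 0.0610, and Mef2d -0.15, adjusted p = 0.186) and in the authors' processed values (-0.25 and -0.12, adjusted p = 0.0732 and 0.230). Normexp correction, median scaling and the trend with a robust prior ended both calls too. Foxo1 did not pass when either control array was left out (adjusted p = 0.0687 and 0.0536). Mapk7, the gene of the ERK5 kinase itself, was not detected.

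Genes that Klf2 is known to turn on went both ways. Of 5 detected, 2 rose and 1 fell, with a median of 0.54. Itgb7, an integrin subunit of lymphocyte homing, rose from 10.40 and 10.70 in the controls to 11.53 and 11.56 in the deletion samples (1.00, SE 0.15, limma adjusted p = 0.0137). Thbd, the endothelial and myeloid anticoagulant receptor thrombomodulin, fell from 8.33 and 8.25 to 6.84 and 6.94 (-1.40, SE 0.12, limma adjusted p = 0.00404). S1pr1 and Nos3, also known Klf2 targets, were not detected.

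Genes that Klf1 is known to drive in red cell precursors fell in 13 of 15 detected cases, with a median of -2.42, and 14 were lower at an unadjusted p under 0.05. Klf3 is on that list and was 1 of the 2 that did not pass. Slc4a1, the red cell anion exchanger, read 13.64 and 13.84 in the controls against 8.73 and 4.38 in the deletion samples, the last not detected (-7.19, SE 1.42, limma adjusted p = 0.0263, and 0.0805 and 0.0966 without control replicate 1 and 2). Dmtn, a membrane skeleton protein, read 10.67 and 10.58 against 5.33 and 4.62 (-5.65, SE 0.26, limma adjusted p = 0.00143). Alas2, the red cell heme synthesis enzyme, read 10.74 and 10.73 against 6.12 and 4.39 (-5.48, SE 0.58, limma adjusted p = 0.00627). Dmtn and Alas2 were each detected on 1 of the 2 deletion arrays. Of the genes that Klf3 is known to repress, Lgals3, which encodes galectin-3, rose from 11.86 and 11.69 to 12.64 and 12.53 (0.82, SE 0.13, limma adjusted p = 0.0154, and 0.0502 without control replicate 2). C1qtnf12, an adipokine also known as Fam132a, fell from 11.58 and 11.71 to 8.46 and 8.27 (-3.29, SE 0.13, limma adjusted p = 0.00113). Klf8, the other, was not detected.

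Signals known to induce members of the family were read through separate lists. Glucocorticoid-induced genes are read here because Klf9 is itself induced by glucocorticoids. Of 7 detected, 4 rose and none fell (median 0.68, none lower at an unadjusted p under 0.05), where 14.8% of all genes rose. Ddit4, a stress-induced inhibitor of mTORC1, rose from 8.61 and 8.49 to 10.21 and 10.49 (1.80, SE 0.15, limma adjusted p = 0.00389). Tsc22d3, the leucine zipper GILZ, changed by 0.86 (adjusted p = 0.0246, and 0.0701 and 0.0678 without control replicate 1 and 2) and Fkbp5, a glucocorticoid receptor co-chaperone, by 0.79 (adjusted p = 0.0143). Klf9 itself did not pass, as given above.

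Immediate early genes, the fast transcriptional responders to stimuli such as mitogens, went both ways, with 2 higher and 2 lower of 9 detected and a median of 0.31. Ier3 rose from 8.05 and 7.91 to 9.24 and 9.09 (1.18, SE 0.13, limma adjusted p = 0.00660). Egr1 rose from 9.25 and 9.36 to 10.68 and 10.28 (1.17, SE 0.17, limma adjusted p = 0.0133, and 0.0502 without control replicate 2). Jun (-0.61, adjusted p = 0.0266) and Dusp1 (-0.61, adjusted p = 0.0224) fell, and neither passed without control replicate 2 (0.0725 and 0.0604), nor Jun without control replicate 1 (0.0559). Jun was at -0.21 without background correction (adjusted p = 0.0880) and at -0.17 in the authors' processed values (adjusted p = 0.120). Of 8 detected TGF-beta signalling genes, 1 rose and none fell (median 0.40), with 5 higher and none lower at an unadjusted p under 0.05. It was the receptor Tgfbr1, at 9.66 and 9.60 against 10.16 and 10.21 (0.55, SE 0.11, limma adjusted p = 0.0284), which did not pass without control replicate 2 (adjusted p = 0.0717), with median scaling (0.36, adjusted p = 0.0892) or with the mean of its probes (0.29, adjusted p = 0.104).

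**Figure D4:**
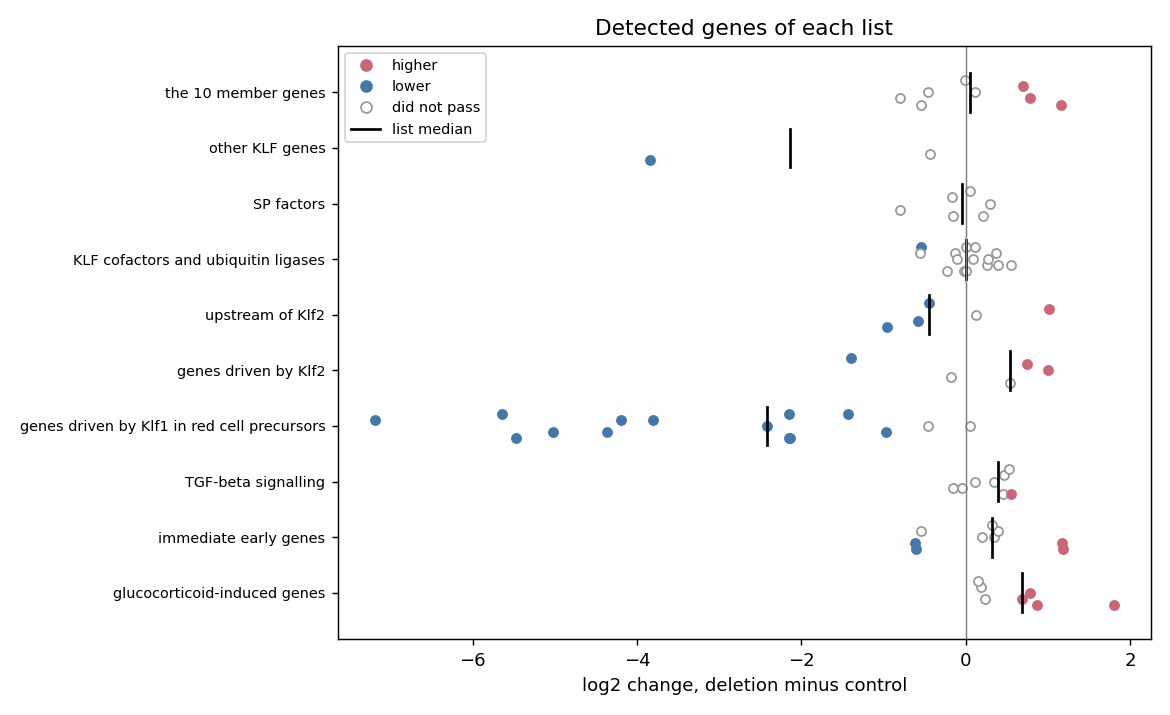
Log2 change (deletion minus control) of the detected genes of each list by their brightest probe, filled red where higher, filled blue where lower and open where the adjusted p is 0.05 or more, with the list median as a bar. Members spread on both sides of 0 with a median of 0.05, while the genes driven by Klf1 lie far to the left at a median of -2.42.

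The 3 genes whose pattern over the 4 arrays lay nearest to that of Klf6, by Euclidean distance between log2 values after each gene's control mean was subtracted, were Sdr39u1 (distance 0.0443), Rgs1 (0.0501) and Gpr183 (0.0646). Rgs1 encodes a regulator of G protein signalling, and Gpr183 an oxysterol receptor that guides immune cells. Rgs1 read 7.55 and 7.49 against 8.71 and 8.71, and Gpr183 read 7.89 and 7.76 against 9.05 and 8.99. Their changes were 1.18 for Sdr39u1, 1.19 for Rgs1 and 1.19 for Gpr183. With only 4 points a short distance says little more than that the change is of the same size.

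Cell type markers moved with the groups, and over all genes 14.8% rose and 14.2% fell. Summed linear levels of red cell markers were 48212 and 50593 in the controls and 9208 and 2715 in the deletion samples, with 8 of 9 detected markers lower and Hbb-b1 not detected. Hba-a1, at 14.33 and 14.35 on the log2 scale against 12.52 and 8.28, did not pass (-3.94, limma adjusted p = 0.0990). It weighs most in both control sums and in that of deletion replicate 1. B cell markers summed to 16816 and 16635 against 1086 and 1429, with 8 of 8 lower and Pax5 not detected. T and NK cell markers summed to 12727 and 12234 against 29099 and 23233, with 8 of 10 higher and Ncr1 not detected. T cells are known to express Klf2, Klf6 and Klf13. Stem and early progenitor markers were higher in 5 of 7 and lower in 1, at 3331 and 3470 against 7212 and 7084, with Flt3, Hlf and Mecom not detected. The rise of that sum came mostly from Ly6a, at 9.66 and 9.56 on the log2 scale in the controls against 12.13 and 12.16. The 1 lower was Kit (-0.82, limma adjusted p = 0.0346). Megakaryocyte markers were higher in 6 of 8 and lower in 1, at 1369 and 1434 against 2612 and 3752.

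Of the myeloid lists, monocyte and macrophage markers, beside which Klf4 and Klf6 are read, were higher in 4 of 9 and lower in none, summing to 6938 and 6255 against 7123 and 7638. The 4 higher were Irf8 (0.77), Cd68 (0.83), Ccr2 (0.80) and Ms4a6c (0.95). The others did not pass and went both ways: Csf1r (-0.44), F13a1 (-0.17), Lyz2 (-0.13), Adgre1 (-0.06) and Cx3cr1 (0.31). For Csf1r both deletion arrays were below both controls. Neutrophil markers were higher in 3 of 10 and lower in 2, at 37680 and 40053 against 35206 and 34489, with Mmp8 not detected. Mpo, the brightest of them (mean 14.06 in the controls, change 0.04), weighs most in that sum. The 2 lower were Elane (-3.13) and Prtn3 (-0.76), and the 3 higher were Camp (0.76), Ngp (0.69) and Cxcr2 (1.07). Eosinophil, basophil and mast cell markers were higher in 5 of 9 and lower in 2, at 19303 and 18621 against 26004 and 26439. This list was split. The 2 lower were the eosinophil genes Epx (-2.08) and Ear2 (-1.34), and Prg2 (-1.02) did not pass. The 5 higher were Fcer1a (1.82), Ms4a2 (1.86), Cpa3 (1.05), Mcpt8 (0.60) and Gata2 (0.79), and Cma1 (1.66) did not pass. Endothelial and stromal markers, beside which Klf2 is read, were higher in 3 of 6 and lower in none, at 1501 and 1396 against 2356 and 2311, with Kdr, Col1a1, Col3a1 and Lepr not detected. The 3 higher were Cxcl12 (0.88), which weighs most in that sum, Tek (1.11) and Col1a2 (0.75). The endothelial genes Pecam1 (0.25) and Cdh5 (0.42) did not pass, nor did Dcn (0.08). Col1a2 and Cdh5 were not detected in either control. The part of these shifts in the changes of Klf4, Klf6 and Klf7 was not tested. In such bulk samples fewer cells of a type and less RNA per cell cannot be told apart.

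Detected probes numbered 16968 to 18072 per array, 37.5% to 39.9% of the array. Correlations of log2 values were 0.9858 within the controls, 0.9898 within the deletion samples and 0.9233 to 0.9417 between the groups. The number of arrays, 4, limits the precision: an exact permutation test of 2 against 2 samples cannot go below p = 0.333, so the calls rest on limma's spread shared across probes. By their brightest probes, Klf6, Klf7 and Klf4 passed when either control array was left out. Without deletion replicate 1 none of the 3 passed (adjusted p = 0.0510, 0.103 and 0.110), and without deletion replicate 2 none did (0.0531, 0.0975 and 0.104). Their changes stayed near the full values there: leaving out any 1 array gave 1.12 to 1.19 for Klf6, 0.71 to 0.84 for Klf7 and 0.67 to 0.73 for Klf4. Of the 25 genes that the naming rule gave outside the Kruppel-like and SP families, Atad3a among them, 17 did not pass without deletion replicate 1 and 18 without deletion replicate 2. Ddit4, Thbd, C1qtnf12, Dmtn and Alas2, and in the family Klf1, passed with any 1 array left out.

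**Figure D5:**
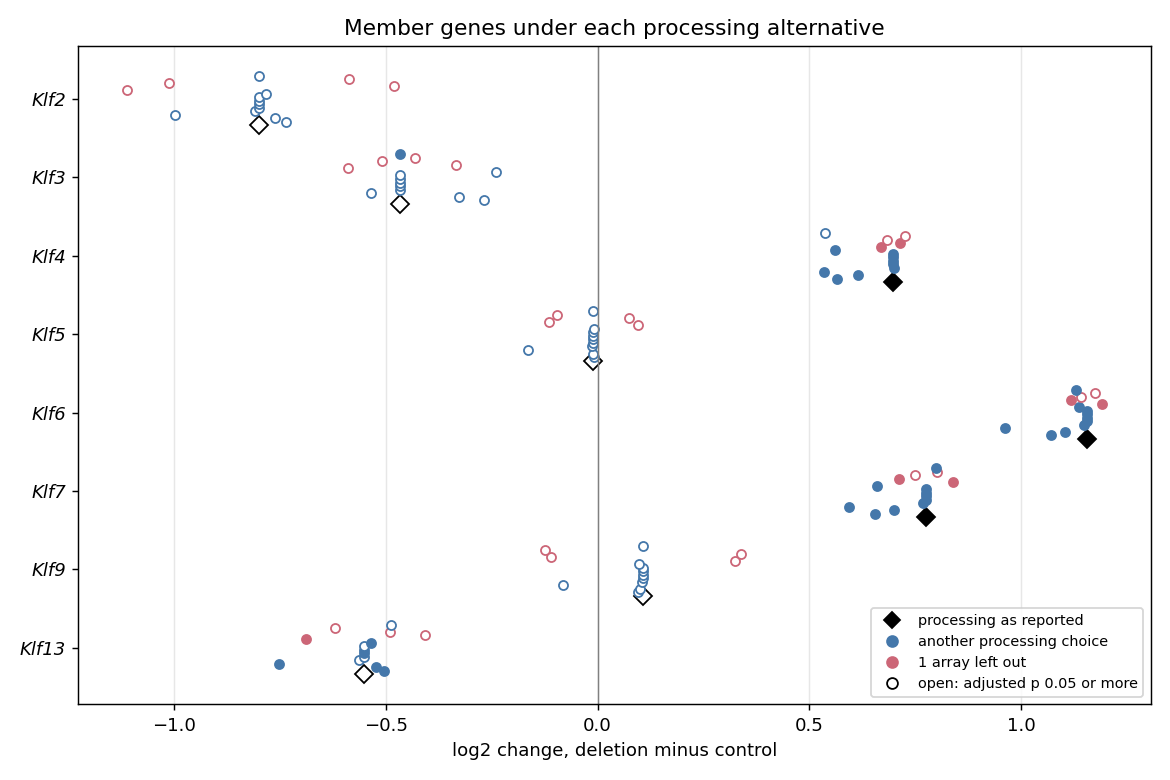
Log2 change (deletion minus control) of each detected member as reported (diamond) and under 14 processing alternatives, in blue for another choice and red for 1 array left out, open where the adjusted p is 0.05 or more. Klf4, Klf6 and Klf7 stay to the right of 0 and Klf2, Klf3 and Klf13 to the left throughout, while Klf5 and Klf9 cross it.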

How the data were processed

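Total RNA was turned into biotin-labelled cRNA for Illumina mouse WG-6 v2 arrays, per the labels' protocols. Groups came from the sample titles. Per the file headers, the deposited scanner table gives an unnormalized signal intensity and a detection p-value for each of 45281 probes on each array. The submitters' processing notes name GenomeStudio, with no settings. The deposited value matrix of the series, whose processed intensity is the authors' own, served as an alternative.

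With limma 3.58.1 (R 4.3.3), signals had their background corrected (neqc steps, negative controls inferred from the detection p-values, offset 16), quantile normalized and put on a log2 scale. Probes with detection p under 0.05 on at least 2 arrays (18367) were tested by lmFit and eBayes (2 residual and 2.72 prior degrees of freedom). Adjustment was over all of them, with a threshold of 0.05. Gene names came from the platform table for 34885 probes (34807 matched RefSeq, GRCm38.p6) and from array names for 1722. A further 18 probes had several genes, and 8674 in all stayed unnamed. The fit was tested on simulated data.

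The members and lists were chosen with earlier results of these data known. Named were every member probe, every detected Kruppel-like and SP gene, up to 3 called genes per list and direction, the 3 genes nearest to the member with the largest rise, and Atad3a. Other names, such as undetected genes, complete a list. One gene that the rule gave is counted but not reported here. No member fell past the threshold, so no nearest genes are given for a fall. The alternatives tried are those in the closing section. The numbers that same-numbered arrays share do not pair them: their deviations correlated at 0.0253, and the labels name no shared litter or day.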

Additional observations from a re-analysis of the deposited data

How the results depend on the processing

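Settings tried were another background correction (none, or normexp with offset 50), another normalization (cyclic loess or median scaling), another detection filter (none, or p under 0.01 on every array), a robust prior with an intensity trend, the replicate block, the authors' values, the mean of a gene's probes, and 1 array fewer. The count of 3 higher members ranged from 0 to 3 over the fits without 1 array, at 0 without either deletion array, and was 2 with the mean of probes, where Klf4 was lost. The count of lower members was 1 in place of 0, Klf13 each time, with no background correction, normexp and median scaling. It was the same with the strict detection filter, the trend and robust prior and the authors' values. It was also 1 with the mean of probes, where Klf3 passed (limma adjusted p = 0.0473) with its single probe and an unaltered change of -0.47. It was 0 to 1 over the fits without 1 array (Klf13 without control replicate 1, adjusted p = 0.0443). Over all genes, 1536 higher and 1479 lower became 208 to 1250 and 398 to 1124 without 1 array: 842 and 697 when control replicate 2 was left out, 270 and 442 for deletion replicate 1, and 208 and 398 for deletion replicate 2. A fit with 1 array in a group takes its spread from the other group and has 1 degree of freedom fewer. Higher genes were 50.9% of calls, 39.6% with median scaling (1212 higher and 1845 lower, median change of all genes -0.11), and 37.9% and 34.3% without deletion replicate 1 and 2. With the replicate number as a block, 3 members were higher and 0 lower, beside 1255 higher and 1155 lower genes. The block ended the calls of Rcor1, Foxo3, Mef2d and Tgfbr1 and gave the dim Klf4 probe ILMN_1221264 a call. Among the other member probes and the other genes that the naming rule gave it changed no call. The strict filter left the second Klf6 probe and that Klf4 probe untested. Of the 25 genes that the naming rule gave outside the Kruppel-like and SP families, 17 lost their call without deletion replicate 1 and 18 without deletion replicate 2, against 6 and 11 for control replicate 1 and 2, and 0 to 4 under each of the other alternatives, where the strict filter tested 20 of the 25. No change that passed in either fit turned its direction.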

Other observations

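The gap between the 2 control arrays was uneven across the families. Control replicate 2 exceeded control replicate 1 by 0.63 on the log2 scale for Klf2, by 0.71 for Sp2 and by 0.40 for Klf16. It was below it by 0.44 for Klf9 and by 0.68 for Sp4. For the 3 members that rose the 2 controls differed by 0.05 (Klf4), 0.08 (Klf6) and 0.13 (Klf7) on their brightest probes. A small gap within a group makes it easier to pass the test. The narrow gaps of the risen members are therefore partly set by the selection and are no separate finding. On the dimmer Klf4 probes the controls lay farther apart, as their values above show. The median absolute gap over all genes was 0.163 between the controls and 0.118 between the deletion arrays.

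In Klf9 the arrays crossed: the highest and the lowest of the 4 values, 9.49 and 8.93, were both of replicate 2, in the deletion and the control group. The gap between the 2 deletion arrays, 0.46, was exceeded by 6.58% of all genes.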
